A study of Danio rerio with 8 samples.

Results

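Radial glia of the adult zebrafish brain were compared with the other cells sorted from such brains after a control injection of phosphate-buffered saline (PBS). The comparison used 4 of the 8 samples of the series, 2 of GFP-positive and 2 of GFP-negative cells, chosen by the treatment and sorted fraction in their labels, and all 31388 genes of the deposited table. The fish of both groups were 6 months old (6 mpf) and carried the her4.1:EGFP transgene, in which the promoter of the Notch target gene her4.1 drives green fluorescent protein. Brains were taken 24 hours after injection and dissociated, and the cells were separated by flow cytometry into those with and those without GFP. Messenger RNA was copied into full-length cDNA from its poly(A) tail and sequenced. No uninjected brain and no other control entered the comparison, so both groups share the injection, the dissociation and the sort. The labels do not say whether the 2 samples of a group came from different fish or from pools of fish, so the p-values measure only the spread between samples within groups, which may be technical and was estimated over all 8 samples of the series. The GFP-negative fraction is a mixture of all cells in which the her4.1 promoter was silent or weak, and not 1 cell type.

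Radial glia line the ventricles of the fish brain, span its wall with long processes, and serve both as neural stem cells and as the astroglia of a brain with few star-shaped astrocytes. In astroglia, glutamate and GABA are cleared from synapses, ions and water are moved across membranes and gap junctions, and serine is made for the neighbouring neurons. Stem cell character in this lineage is held by Notch signalling, SOX factors and repressors of the Hes and Her families.

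Total counts were 22135340 and 21458011 in the GFP-negative samples and 26582271 and 22799812 in the GFP-positive samples, and 23243 to 25168 genes had at least 1 count. Levels are given as CPM, the count scaled to a fixed library size after TMM normalization, for the 2 samples of a group in turn. Differences are log2 fold changes, GFP-positive minus GFP-negative, with their standard error (n = 2 against 2), and a gene was called when its edgeR quasi-likelihood p, adjusted over all genes tested, was under 0.05. Of 20508 genes tested, 14713 were called (71.7%), 6691 of them higher (32.6%) and 8022 lower (39.1%) in GFP-positive cells. Tested against a change of 2-fold, 2645 genes were higher (12.9%) and 4666 lower (22.8%). These shares are the background against which the counts of each gene list are to be read, and the median difference over all genes was -0.137. When samples were scaled by their total counts alone, this median moved by -0.485, and 4231 genes were higher and 10753 lower. Directions of small differences, below about that size, therefore depend on the scaling. The genes higher past 2-fold held 42.7% and 42.4% of the summed TPM (counts per transcript length, scaled to the same total in each sample) in the GFP-positive samples, against 14.5% and 14.4% in the GFP-negative samples. TPM carry no TMM factor, so a gene or a list sum can compare otherwise in TPM than in CPM. LDHB, for 1, was called higher (0.38 ± 0.04) but stood at 1030 and 1050 against 1210 and 1210 TPM.

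The gene whose promoter drives the reporter and the marker genes differed between the fractions in the direction of the labels. Transcripts of her4.1 itself (chromosome 23, 21526006 to 21527063, GRCz10) stood at 1380 and 1320 CPM in GFP-positive cells and at 9.27 and 9.24 CPM in GFP-negative cells, a difference of 7.18 ± 0.07. The other her4 genes of this cluster, her4.2 to her4.5, were higher by 5.45 to 6.95. These genes are near-identical and some share exon bases (her4.2 with her4.3 by 521 bases, her4.4 with her4.5 by 107), so their separate values depend on how reads were assigned. Of 29 radial glia markers tested, 27 were higher and 1 was lower, with a median of 3.61. Their summed level was 67000 and 66400 TPM in GFP-positive cells against 4160 and 4120 TPM in GFP-negative cells. Most of these sums came from FABP7 of chromosome 17 (42500 and 41500 against 1310 and 1370 TPM) and GLUL of chromosome 2 (9770 and 10000 against 1870 and 1790 TPM). The list includes her4.1 to her4.4, so part of it is not independent of the sort by the her4.1 promoter.

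Markers of other brain and blood cells were mostly lower in GFP-positive cells but were not absent from them. All 25 neuron markers tested were lower (median -2.87), and their summed level was 630 and 616 TPM against 5640 and 5430 TPM. Of 28 microglia and macrophage markers, 27 were lower (median -3.69), at 926 and 951 TPM against 13800 and 13900 TPM in sum. Of 17 oligodendrocyte and precursor markers, 12 were lower and 3 higher (median -1.78), with sums of 1380 and 1380 TPM against 14200 and 13600 TPM. In GFP-positive cells all 8 neutrophil markers (median -4.41), 12 of 15 lymphocyte markers (median -3.44) and 19 of 22 endothelial markers (median -2.95) were lower, 2 endothelial markers being higher. The number of listed genes with 0 counts in both GFP-positive samples was 0 for neurons, oligodendrocytes and endothelium, 2 of 30 for microglia, 2 of 17 for lymphocytes, 1 of 10 for neutrophils and 5 of 15 for erythrocytes. Since the samples are bulk RNA, fewer cells of a type and less RNA per cell cannot be told apart. The part that RNA of these cells has in the differences below was not tested.

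**Figure D1:**
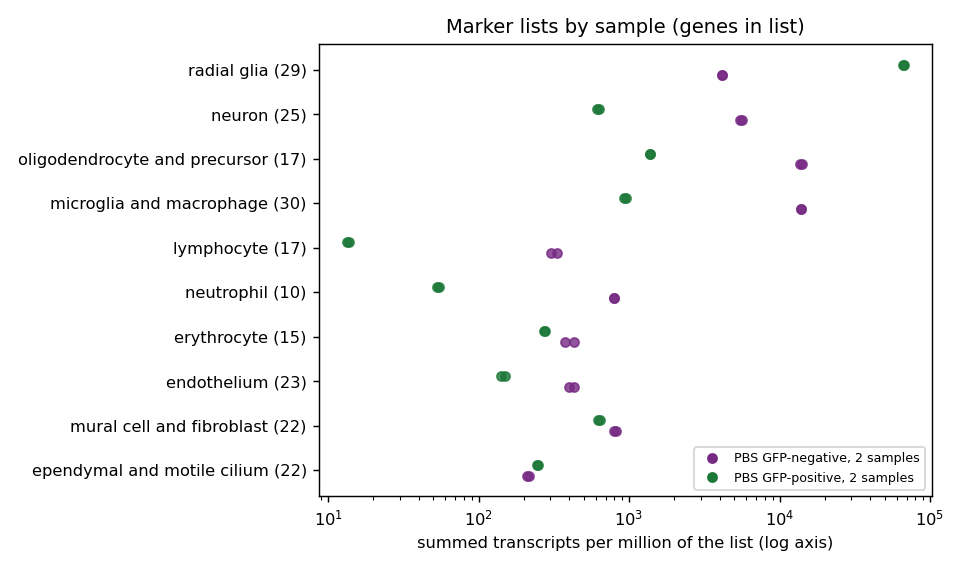
Summed level of each marker list in TPM (log axis), with 1 dot for each of the 2 PBS GFP-negative (purple) and 2 PBS GFP-positive (green) samples, and in brackets the number of genes in the list. The radial glia list is at 67000 and 66400 in GFP-positive samples against 4160 and 4120, and the neuron, oligodendrocyte, microglia, lymphocyte and neutrophil lists lie the other way, while the sums of the erythrocyte, mural and ependymal lists lie closer together.

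In 3 further lists the summed TPM of the fractions lay closer together. These sums carry no TMM factor, which limits the reading of small differences between them. Of 11 erythrocyte markers tested, 9 were lower and 2 higher (median -5.26), yet the sum was 274 and 276 TPM against 378 and 433 TPM. In GFP-positive cells 272 and 273 TPM of this sum came from cahz, a carbonic anhydrase, which was higher there at 321 and 314 CPM against 112 and 121 CPM (1.44 ± 0.05). The other higher gene, the erythroid factor klf1, lost its call under several alternatives, at 0.78 without the first GFP-negative and 1.09 without the second GFP-positive sample. The haemoglobin gene hbaa1, by contrast, stood at 0.183 and 0.261 CPM against 23.3 and 28.2 CPM. Of 22 markers of mural cells and fibroblasts, 12 were lower and 6 higher (median -1.31), with sums of 620 and 642 TPM against 819 and 795 TPM. Higher ones were DCN, the matrix proteoglycan decorin, at 274 and 288 against 40.3 and 32.4 CPM, and MYL9 of chromosome 6, a myosin light chain, at 237 and 234 against 33.9 and 35.9 CPM, while the collagen gene COL1A2 was lower (-3.81 ± 0.16). The 19 ependymal and motile cilium markers tested gave 13 higher and 1 lower, with a median of 1.94 and sums of 244 and 248 TPM against 210 and 216 TPM. The lower one, the tubulin gene tuba8l2, held 129 and 141 TPM of the GFP-negative sums. It held 31.5 and 29.6 TPM of the GFP-positive sums. FOXJ1, the master regulator of motile cilia, stood at 87.8 and 79.6 CPM against 10.6 and 12.6 CPM (2.85 ± 0.11), and its paralogue foxj1b at 24.6 and 24.8 against 4.08 and 3.32 CPM.

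**Figure D2:**
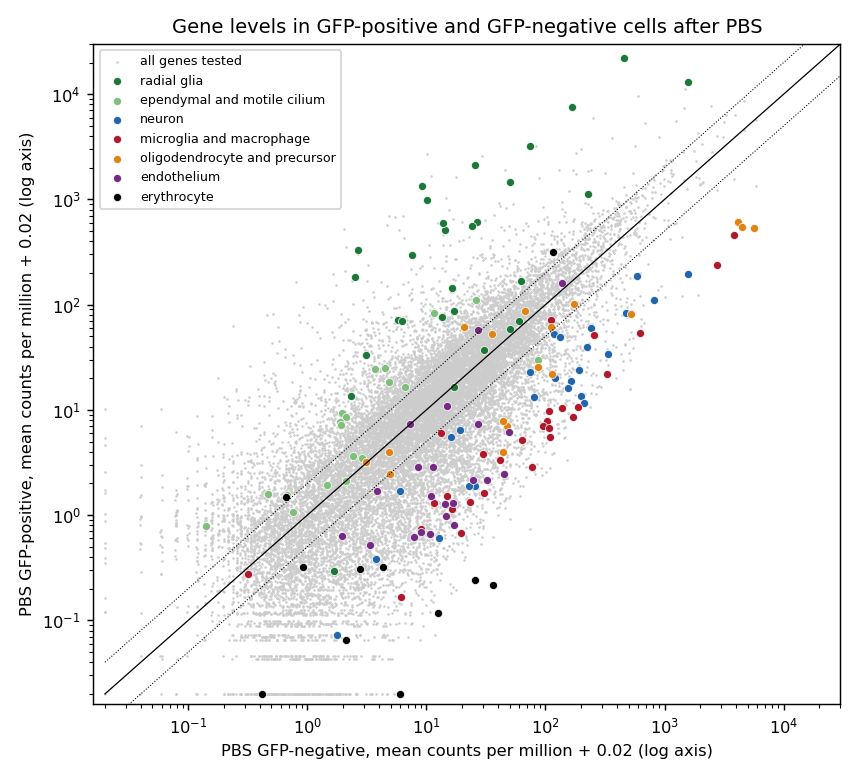
Mean level of each gene tested in PBS GFP-negative (x axis) and PBS GFP-positive samples (y axis), in CPM plus 0.02 on log axes, with marker lists in colour. The solid line marks equal levels and the dotted lines a 2-fold difference. Of the coloured genes, 27 of 29 radial glia and 13 of 19 ependymal markers were called higher, and all 25 neuron and 27 of 28 microglia markers were called lower.

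Among genes higher in GFP-positive cells at a level of at least 10 TPM, the 10 with the largest differences included transcription factors, a vesicle gene and enzymes. Highest was rx3 (chromosome 21, 10663526 to 10666595), a retinal homeobox gene that is known from the eye field and the hypothalamus, at 62.4 and 62.1 CPM against 0.269 and 0.162 CPM (8.13 ± 0.20). Next came arf4b (chromosome 11, 42178260 to 42182065), a small GTPase of vesicle traffic, at 2720 and 2710 CPM against 9.34 and 10.7 CPM (8.08 ± 0.08). Directly beside it on the other strand lie zgc:110286 (from 42183926, 8.02 ± 0.09) and si:ch1073-165f9.2 (from 42184132, 7.52 ± 0.21), so 3 of the 10 genes neighbour each other, and the last pair share 593 exon bases. The homeobox gene noto, known for its role in the notochord of the embryo, gave 418 counts in the GFP-positive samples and 2 in the others, a ratio of 258 with a 95% counting interval of 71.1 to 2140. Also among the 10 were msrb2, which repairs oxidised methionine (170 and 158 against 0.961 and 0.608 CPM), lratb.1 of the retinol acyltransferase family (351 and 349 against 1.85 and 2.31 CPM), and fgfbp3, a secreted carrier of fibroblast growth factors (1710 and 1640 against 10.9 and 10.9 CPM). The groups did not overlap for any of these genes, which follows from their choice by the largest differences. The 10 lowest by the same rule included the globin gene hbaa1, HBE1 globin genes and si:ch211-5k11.8. These neighbour each other on chromosome 3 (54836628 to 54851382), and some of them share exon bases, so they are not separate loci. COL10A1 of chromosome 20, a collagen, was also among the 10 lowest, at 0.229 and 1.2 against 75.2 and 72.9 CPM (-6.74 ± 0.26). Of the 10 lowest, the HBE1 gene at 54843855 to 54844670, stard15, nfil3-4 and spink2.3 had no count in GFP-positive cells. They were at least 81.4-fold, 57.7-fold, 45.8-fold and 35.0-fold lower, taking 3 counts over the group as the floor.

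Some genes had no count at all in 1 fraction. The heparan sulphate proteoglycan gene gpc5b had 410 counts over both GFP-positive samples and 0 over the others, and was thus at least 169-fold higher. On the same floor the Snail family gene snai3 was at least 91.5-fold, the melanocortin antagonist ASIP at least 76.7-fold, and szl, which inhibits Chordin-cleaving proteases in the fish embryo, at least 44.1-fold higher. The other way, the thrombocyte integrin gene itga2b had 323 counts in the GFP-negative fraction, 0 in the other, and was at least 87.1-fold lower, the complement regulator cfh at least 85.2-fold lower, and csf1a, which encodes a growth factor of macrophages, at least 63.6-fold lower. The cytokine gene ifng1 had 203 counts against 1, a ratio of 164 with a counting interval of 29.1 to 6510. These bounds and intervals cover counting error only.

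The most abundant transcripts of GFP-positive cells included glial genes, mitochondrial genes and immediate early genes. The 10 highest by TPM held 19.5% and 19% of the total, against 13.2% and 13.7% for the 10 highest of GFP-negative cells. The highest in both fractions was malat1, at 50700 and 50300 TPM in GFP-positive against 42200 and 43100 TPM in GFP-negative cells (0.85 ± 0.03). FABP7 of chromosome 17, a brain lipid carrier, stood at 22400 and 21300 CPM against 440 and 475 CPM (5.58 ± 0.04), and GLUL of chromosome 2, glutamine synthetase, at 13100 and 13000 against 1590 and 1580 CPM (3.04 ± 0.03). Among the 10 were also the immediate early genes FOS (11100 and 11100 against 1560 and 1430 CPM) and JUNB of chromosome 3 (7480 and 7450 against 1430 and 1480 CPM), and JDP2 of chromosome 20 (9860 and 9500 against 571 and 622 CPM), whose product pairs with Jun proteins. In GFP-negative cells the top 10 included cd59a, a complement inhibitor of the cell surface, at 5800 and 6010 CPM, with 1380 and 1310 CPM in GFP-positive cells (-2.14 ± 0.03).

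Genes of serine and glycine synthesis and breakdown were mostly higher in GFP-positive cells. Of 30 genes for serine, glycine and folate carbon tested, 23 were higher and 2 lower, with a median of 1.74. PHGDH (chromosome 9, 48488541 to 48516821), which starts serine synthesis, stood at 811 and 765 CPM against 16.8 and 14.3 CPM (5.66 ± 0.07). The next enzyme, PSAT1, stood at 277 and 264 against 17.0 and 17.5 CPM (3.97 ± 0.07), and the last, PSPH, at 23.9 and 23.6 against 9.69 and 10.4 CPM (1.24 ± 0.15), so the difference was largest at the first step. SHMT2, which turns serine into glycine in mitochondria, was higher by 1.81 ± 0.18. All 4 proteins of the glycine cleavage system had a higher gene. GLDC stood at 126 and 135 against 3.96 and 3.08 CPM (5.21 ± 0.12), gcshb was higher by 4.54 ± 0.20 and its paralogue gcsha by 1.75 ± 0.12, AMT by 3.47 ± 0.20 and DLD by 1.26 ± 0.06. The serine racemase gene srr (6.03 and 7.37 against 0.500 and 0.203 CPM) and the glial glycine transporter gene SLC6A9 (88.0 and 83.1 against 17.7 and 15.5 CPM) were higher as well. Of the folate genes, ALDH1L1 was higher by 3.42 ± 0.20 and GART, a purine synthesis enzyme, by 3.02 ± 0.18. The lower ones were the CTH gene of chromosome 6, which cleaves cystathionine (-1.18 ± 0.13), and cbsb at -0.38, which was -0.20 and no longer called without the first GFP-positive sample.

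Fatty acid oxidation was the metabolic list with the highest share of higher genes, 28 of 35 tested against 5 lower, with a median of 1.50. Of the lower genes, the acyl-CoA synthetase genes ACSBG2 and ACSL1 stood at 159 and 178 against 277 and 268 CPM (-0.69 ± 0.06) and at 17.1 and 14.5 against 60.8 and 67.5 CPM (-2.02 ± 0.10). Carnitine-dependent entry was split. CPT2 and the carrier SLC25A20, which act at the inner mitochondrial membrane, stood at 45.5 and 49.7 against 10.6 and 11.6 CPM and at 111 and 115 against 31.4 and 35.0 CPM. CPT1B, an outer-membrane form, was lower at 0.869 and 0.366 against 14.3 and 11.3 CPM (-4.33 ± 0.34). CPT1A, another outer-membrane form, stood above it in GFP-positive cells, at 35.8 and 35.7 against 42.2 and 45.8 CPM (-0.30 ± 0.11). Its lower call was lost with DESeq2 (-0.26) and with the PBS samples alone (-0.22). The higher genes included chain-shortening enzymes. ACADL stood at 286 and 294 against 48.1 and 48.9 CPM (2.58 ± 0.07), ACADVL was higher by 1.84 ± 0.08, ECHS1 by 1.54 ± 0.06, HADH by 2.09 ± 0.09 and ACAA2 by 1.95 ± 0.08. HADHB and hadhaa, which form the trifunctional protein and have overlapping spans on opposite strands of chromosome 20, were higher by 2.31 ± 0.05 and 2.66 ± 0.10. ECI2 and DECR1, needed for unsaturated chains, were higher by 2.99 ± 0.08 and 2.83 ± 0.12, and ETFB, which passes the electrons on, by 1.62 ± 0.06. PPARGC1A, a coactivator of mitochondrial genes, was lower at 1.19 and 0.418 against 5.50 and 7.17 CPM (-2.94 ± 0.35).

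Glycolysis genes were more often lower than higher, and at several steps paralogues differed in opposite directions. Of 41 tested, 13 were higher and 26 lower (median -0.46). The list's sum, which carries no TMM factor, was 11700 and 12000 TPM in GFP-positive against 11600 and 11000 TPM in GFP-negative cells. At the phosphofructokinase step, PFKL of chromosome 11 was higher at 121 and 121 against 19.9 and 16.2 CPM (2.74 ± 0.09), and PFKP of chromosome 24 lower at 41.9 and 44.5 against 238 and 226 CPM (-2.42 ± 0.07). At the aldolase step, ALDOC of chromosome 21 was higher by 0.70 ± 0.04 from a high level (2890 and 2820 against 1820 and 1700 CPM), and ALDOC of chromosome 15 lower (-4.13 ± 0.09). At the enolase step, ENO1 of chromosome 6 stood at 895 and 908 against 49.8 and 56.0 CPM (4.09 ± 0.06), ENO1 of chromosome 23 at 540 and 540 against 661 and 686 CPM (-0.32 ± 0.04), and eno2, the neuronal form, at 23.2 and 24.4 against 192 and 194 CPM. GAPDHS was the abundant glyceraldehyde-phosphate dehydrogenase gene in both fractions and was higher at 4240 and 4250 against 1970 and 1850 CPM, whereas GAPDH stood at 1.28 and 1.88 against 13.1 and 15.4 CPM. The glucose transporter genes slc2a3a, slc2a3b and SLC2A1 of chromosome 23 were lower (-3.10, -3.15 and -3.82). SLC2A1 of chromosome 6 was higher at 55.9 and 59.2 against 37.8 and 33.6 CPM (0.69 ± 0.10), a call that scaling by total counts ended (0.20). HK2, a hexokinase, was lower (-2.37 ± 0.13).

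**Figure D3:**
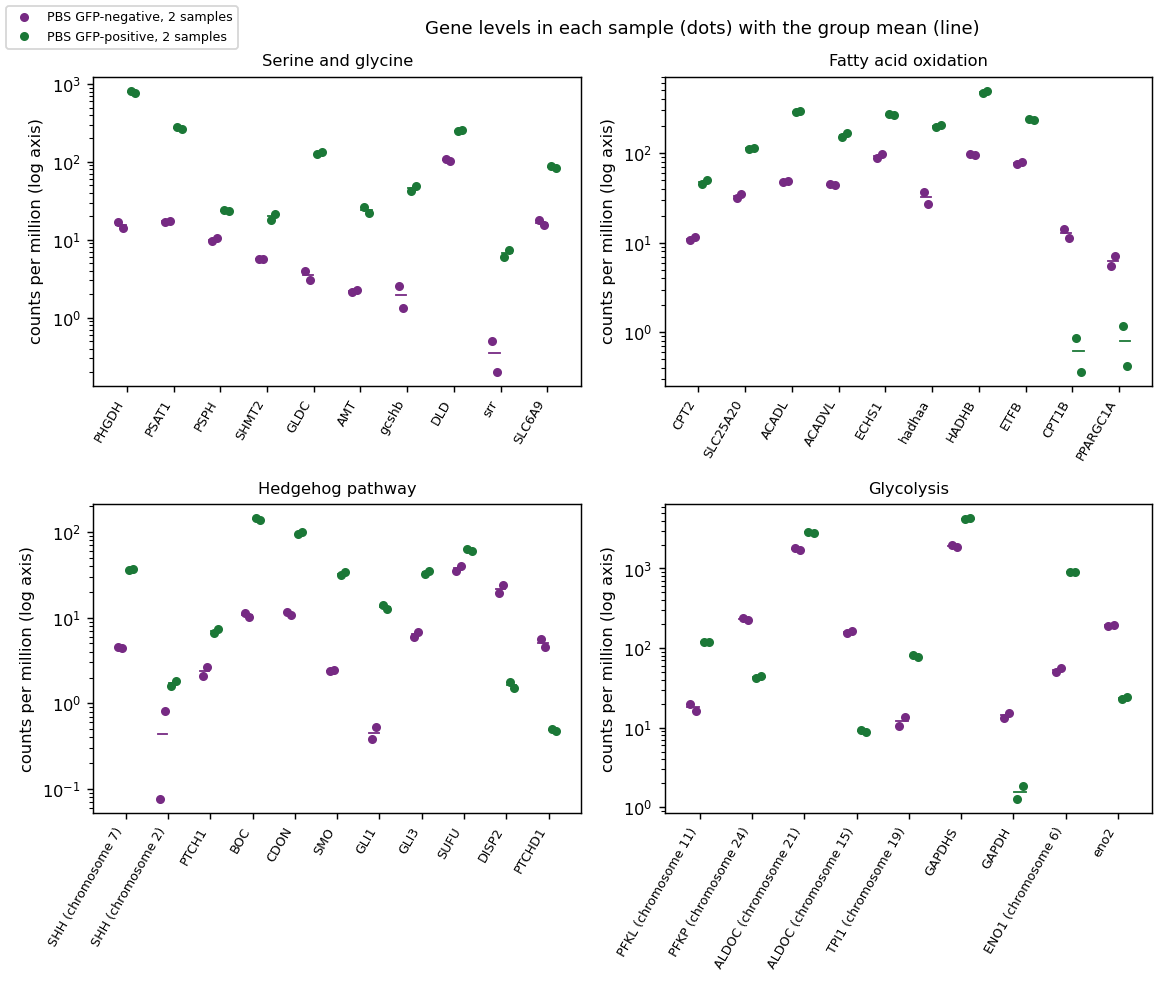
Levels in CPM (log axes) of genes of 4 pathways in the 2 PBS GFP-negative samples (purple dots) and the 2 PBS GFP-positive samples (green dots), with a line at each group mean. The 2 samples of a group lie close together against the distance between the groups for most genes, as for PHGDH at 811 and 765 against 16.8 and 14.3, and the 2 samples of SHH of chromosome 2 stand far apart in GFP-negative cells.

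Of 39 genes of pyruvate entry and the tricarboxylic acid cycle, 26 were higher and 8 lower (median 0.49), but scaling by total counts gave 9 and 13. IDH1, a cytosolic source of NADPH, was higher by 1.45 ± 0.08, and ME1, another, was lower at 1.74 and 1.1 against 15.8 and 15.5 CPM (-3.44 ± 0.28). OGDHL, a 2-oxoglutarate dehydrogenase subunit, was lower (-3.68 ± 0.31). Of 18 glycogen genes, 10 were higher and 5 lower (median 0.81). The liver-type phosphorylase PYGL stood at 17.7 and 20.4 against 3.81 and 3.24 CPM (2.43 ± 0.19) and PPP1R3C of chromosome 12, which targets a phosphatase to glycogen, at 188 and 193 against 49.4 and 42.3 CPM.

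Redox genes were mostly higher, with 36 of 49 higher and 10 lower (median 1.38). The glutathione transferase gstp1.2 stood at 1230 and 1180 against 155 and 160 CPM (2.94 ± 0.04), and the quinone reductase NQO1 at 86.1 and 88.4 against 3.38 and 3.12 CPM (4.74 ± 0.12). PRDX1 of chromosome 1 and TXN, which reduce peroxides and disulphides, were higher by 1.38 ± 0.05 and 1.18 ± 0.05. The regulator of these genes, Nrf2, has a pair of genes in the fish, which differed in opposite directions. NFE2L2 was lower at 33.8 and 35.3 against 103 and 110 CPM (-1.63 ± 0.08), and nfe2l2b higher at 10.1 and 5.49 against 1.92 and 1.34 CPM (2.26 ± 0.31). HMOX1, which degrades haem, was lower at 82.7 and 76.9 against 427 and 451 CPM.

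Of 34 genes that handle glutamate, glutamine and GABA, 14 were higher and 19 lower (median -0.57), yet the list's sum was 14700 and 15100 TPM against 3820 and 3620 TPM. Of these sums, GLUL of chromosome 2 alone held 9770 and 10000 TPM in GFP-positive and 1870 and 1790 TPM in GFP-negative cells. The glutamate carriers SLC1A2 of chromosome 25 and SLC1A3 of chromosome 10 stood at 7510 and 7710 against 172 and 165 CPM (5.50 ± 0.04) and at 540 and 580 against 27.0 and 21.6 CPM (4.52 ± 0.08). The second SLC1A2 gene, on chromosome 7, was low in both fractions, at 0.503 and 0.0523 against 1.85 and 1.46 CPM. Its difference of -2.50 ± 0.68 became -4.76 without the first and -1.62 without the second GFP-positive sample. Of the GABA carriers, SLC6A11 was higher at 278 and 288 against 11.8 and 9.44 CPM, and SLC6A13 higher by 3.36 ± 0.25. SLC38A2, a carrier of glutamine and other neutral amino acids, was lower at 77.3 and 74.9 against 480 and 479 CPM. GAD1 of chromosome 6, which makes GABA, was lower as well (-3.88 ± 0.08).

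Of 52 ion, water and gap junction genes, 20 were higher and 27 lower (median -0.62, summed level 8600 and 8920 against 3500 and 3290 TPM). The water channel AQP1 of chromosome 2 (2895633 to 2907365) stood at 684 and 701 against 4.61 and 5.15 CPM (7.15 ± 0.07). GJA1, which encodes connexin 43, stood at 3240 and 3240 against 71.5 and 76.1 CPM (5.46 ± 0.04). ATP1B4, of the sodium pump beta subunit family, was higher (1890 and 1930 against 48.3 and 43.4 CPM), and atp1a3a, the neuronal pump subunit, lower (-3.33 ± 0.07). SLC4A4, the bicarbonate cotransporter, has a gene on chromosome 5 that was higher (707 and 727 against 36.9 and 36.6 CPM) and one on chromosome 21 that was lower (2.74 and 3.24 against 14.3 and 12.6 CPM). Myelin gap junction gene GJB1 of chromosome 5 was lower (-1.77 ± 0.07).

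Among 74 genes of polarity, adhesion and the glial skeleton, 27 were higher and 33 lower (median -0.15), close to the shares over all genes. HEPACAM, a glial adhesion molecule, stood at 470 and 475 against 55.5 and 57.9 CPM (3.06 ± 0.05). The apical polarity gene crb2b was higher at 34.2 and 40.6 against 9.07 and 8.99 CPM and crb2a by 1.81 ± 0.42. Lower were l1cama, an axonal adhesion molecule (-3.91 ± 0.21), and dlg1a, a scaffold protein (-2.72 ± 0.10).

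Retinoid genes were more often higher than lower. Retinoic acid is made from retinol or carotenoids by oxidation and is removed by CYP26 enzymes. Of 44 genes tested, 23 were higher and 14 lower (median 0.77). For uptake, the retinol receptor gene STRA6 stood at 141 and 147 against 11.3 and 11.3 CPM (3.68 ± 0.10), while RBP4, the carrier of retinol in blood, was lower at 11.7 and 10.7 against 69.3 and 75.6 CPM. Inside the cell, CRABP1 of chromosome 25 binds retinoic acid and stood at 612 and 597 against 19 and 20.8 CPM (4.93 ± 0.06). For interconversion, rdh5 (152 and 155 against 16.4 and 15.3 CPM) and RPE65 of chromosome 2 (96.8 and 105 against 10.5 and 8.99 CPM) were higher, and the retinol dehydrogenase RDH11 was lower (11.2 and 11.3 against 26.7 and 27.8 CPM, -1.28 ± 0.13). ALDH1A2, which makes retinoic acid, was higher by 1.88 ± 0.10, and CYP26B1, which removes it, stood at 216 and 228 against 12.1 and 11 CPM (4.26 ± 0.07). The receptor gene rxrga was lower (-2.47 ± 0.15).

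The Hedgehog list had the highest median of the pathway lists, 1.95, with 19 of 29 genes higher and 4 lower. Hedgehog ligands bind Patched and its coreceptors, which frees Smoothened to act through the GLI factors. The ligand gene SHH of chromosome 7 stood at 36.0 and 36.9 against 4.50 and 4.46 CPM (3.02 ± 0.18). The SHH gene of chromosome 2 was low at 1.60 and 1.83 against 0.0769 and 0.810 CPM, and its difference of 1.95 ± 0.66 was 1.07 and no longer called without the first GFP-negative sample, and 4.37 without the second. Scaling by total counts also ended its call (1.48). SCUBE2, which helps to release the ligand, was higher by 3.03 ± 0.20. The higher genes included receptors and coreceptors, while 6 genes of the list were not called. BOC stood at 144 and 139 against 11.4 and 10.3 CPM (3.70 ± 0.09) and CDON at 94.0 and 99.6 against 11.6 and 10.7 CPM (3.12 ± 0.10). PTCH1, which is also a target of the pathway, was higher by 1.57 ± 0.24. A GAS1 gene of chromosome 5 (31760183 to 31763219) stood at 116 and 109 against 3.58 and 5.96 CPM. SMO stood at 31.5 and 34.1 against 2.38 and 2.43 CPM (3.76 ± 0.17), and GLI1, a target and effector, at 14.1 and 12.6 against 0.384 and 0.527 CPM (4.86 ± 0.27). GLI3 was higher by 2.40 ± 0.14 and the inhibitor SUFU by 0.71 ± 0.10. The lower genes were DISP2, DISP3, PTCHD1 and PTCHD4, relatives of Dispatched and Patched, at -3.70, -3.17, -3.38 and -1.42. PTCH1 shares 361 exon bases with an unnamed gene of the same strand.

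Of 40 Hippo pathway genes, 24 were higher and 8 lower (median 0.74). The effectors YAP1 (114 and 116 against 13.9 and 13.5 CPM) and WWTR1 (2.12 ± 0.36) and their partner TEAD3 of chromosome 6 (2.56 ± 0.30) were higher. So were CCN1 (578 and 543 against 64.7 and 76.6 CPM) and CCN2 (1.45 ± 0.08), known targets of YAP. Upstream, the cadherin FAT4 was higher by 2.52 ± 0.16 and FJX1, a Golgi kinase of the four-jointed family, stood at 375 and 362 against 13.6 and 14.0 CPM (4.74 ± 0.07). The kinase gene LATS1 was lower (-0.93 ± 0.18) and the cadherin FAT2 as well (-5.07 ± 0.17).

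**Figure D4:**
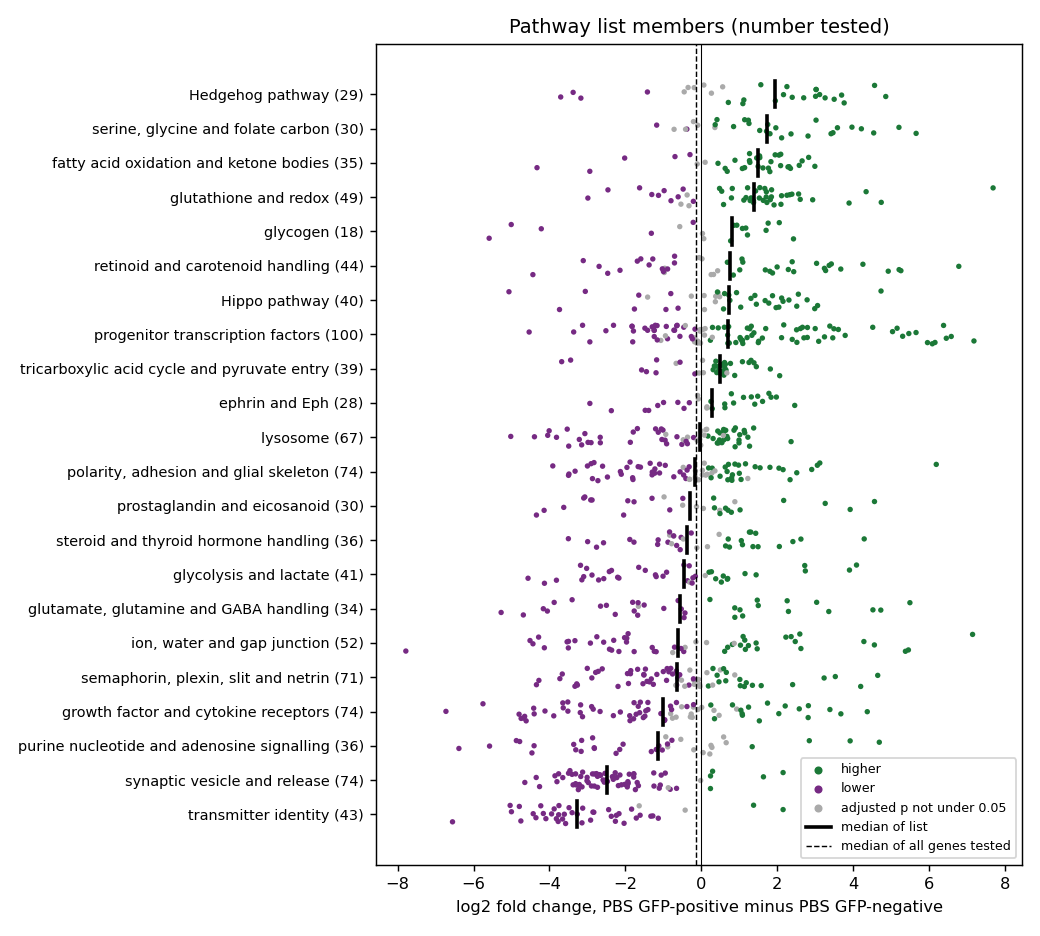
Log2 fold change (PBS GFP-positive minus PBS GFP-negative) of each tested member of 22 pathway lists, with the number tested in brackets. Green dots are called higher, purple dots lower and grey dots not called. Thick black lines mark list medians, from 1.95 for Hedgehog to -3.27 for transmitter identity, and the dashed line marks the median of all genes, -0.137. Every list spans both directions.

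Of 100 transcription factor genes of progenitors tested, 56 were higher and 30 lower (median 0.71). Repressors of the Her and Hes families, effectors of Notch, led it: her8a stood at 76.3 and 84.1 against 0.769 and 0.891 CPM (6.59 ± 0.17), her8.2 was higher by 6.09 ± 0.24 and HES1 stood at 957 and 894 against 38.6 and 42.2 CPM (4.52 ± 0.06). SOX genes of the neural progenitor group followed. The gene sox19a stood at 502 and 525 against 5.73 and 5.96 CPM (6.46 ± 0.07), sox19b was higher by 5.66 ± 0.29 and SOX3 stood at 454 and 458 against 13.5 and 14.2 CPM (5.04 ± 0.06). Of the nuclear receptors, NR2F1 of chromosome 10 was higher by 6.16 ± 0.17 and NR2E1, known as tailless, by 3.61 ± 0.16. MYC of chromosome 2 stood at 1920 and 1880 against 173 and 171 CPM (3.46 ± 0.04). Lower were ID4, an inhibitor of basic helix-loop-helix factors (31.2 and 30.2 against 109 and 109 CPM, -1.83 ± 0.08), LEF1, a Wnt effector (-1.81 ± 0.10), and RORB (-3.36 ± 0.27).

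Receptors for growth factors and cytokines were more often lower, 44 of 74 against 17 higher (median -1.02). The higher ones were led by S1PR1, a receptor of sphingosine 1-phosphate, at 884 and 851 against 43.9 and 39.8 CPM (4.37 ± 0.06). NTRK2, which encodes the BDNF receptor TrkB, stood at 192 and 196 against 27.0 and 27.9 CPM (2.82 ± 0.07), and the Wnt receptor RYK was higher by 2.82 ± 0.13. EGFR was higher by 1.08 ± 0.16. CXCR4 of chromosome 9, a chemokine receptor, was lower at 7.91 and 5.49 against 151 and 135 CPM (-4.40 ± 0.13), and the lymphatic receptor FLT4 had 293 counts in GFP-negative samples against 2, a ratio of 118 with a counting interval of 32.5 to 983.

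Guidance genes were mixed. Of 71 genes for semaphorins, plexins, slits and netrins, 18 were higher and 39 lower (median -0.65). NTN1 of chromosome 3, a midline attractant, stood at 217 and 230 against 9.42 and 8.39 CPM (4.65 ± 0.10). PLXNB1 of chromosome 6 was higher by 4.2 ± 0.18 and shares 758 exon bases with an unnamed gene of its strand, and robo4 was higher by 3.53 ± 0.14. NTNG1 of chromosome 2, a membrane-bound netrin, was lower (-4.28 ± 0.29). Ephrins and Eph receptors gave 15 of 28 higher and 9 lower, with a median of 0.27 that became -0.21 when samples were scaled by total counts. EFNA2 of chromosome 2 was higher by 2.46 ± 0.12, and EFNA1 of chromosome 16 at 7.73 and 9.88 against 48.4 and 42.3 CPM (-2.37 ± 0.14).

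Neuronal lists were lower as a whole, with named exceptions. Of 74 genes of synaptic vesicles and release, 67 were lower and 5 higher (median -2.49). SNAP25 of chromosome 20, a fusion protein, stood at 197 and 196 against 1590 and 1570 CPM. The synuclein SNCG was higher at 118 and 124 against 24.6 and 29.5 CPM (2.16 ± 0.09). Of 43 transmitter identity genes, 39 were lower and 2 higher (median -3.27). The higher ones were oxt, the oxytocin precursor (129 and 122 against 45.0 and 51.7 CPM, 1.38 ± 0.09), and SLC6A2, a noradrenaline carrier (25.5 and 23 against 7.11 and 3.73 CPM, 2.16 ± 0.23). The related precursor avp was lower at 0.137 and 0.314 against 4.88 and 9.97 CPM.

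Some named genes share exon bases with another gene, and with the strand setting unknown part of their counts may belong to it. Besides those given beside their values, these are ACADVL (1283 bases), FAT2 (1205), rlbp1b (685), RDH11 (474), FOS (455), OGDHL (440), PTCHD1 (416), SLC6A9 (388) and PSPH (268). Smaller overlaps were those of cfh (267 with cfhl2), hbaa1 (234 with si:ch211-5k11.8), robo4 (226), CD63 (152), ECI2 (138) and HBE1 genes (129 with each other). The smallest were those of DBX1 of chromosome 7 (116), eno2 (86), STRA6 (58) and itga2b (26).

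The fish genome keeps many duplicated genes, and the fractions were compared gene by gene within such pairs. A pair was 2 genes with the same symbol, or with symbols that differ in a final a and b. Of 1832 pairs with both genes tested, 597 had both lower, 210 both higher, 566 a single called gene and 121 none. In 338 pairs (18.4%) both genes were called in opposite directions, and in 75 (4.09%) both passed 2-fold in opposite directions, a number that was 45 with DESeq2. Of all single genes tested, 32.6% were higher and 39.1% lower, and past 2-fold 12.9% and 22.8%. Whether opposite calls are more or less frequent in such pairs than between unrelated genes was not tested. The median distance between the genes of a pair was 1.07, and 511 pairs lay over 2 log2 units apart.

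The 8 pairs of opposite direction that lay farthest apart, with each gene at 5 TPM or more in its higher fraction, included genes of cell contact, purine and chemokine signalling. The claudin cldn7a stood at 97.0 and 88.4 against 5.57 and 4.98 CPM (4.13 ± 0.13), and cldn7b at 0.183 and 0.837 against 29.9 and 27.4 CPM (-5.85 ± 0.31). The ectonucleotidase ENTPD2 of chromosome 21, which removes extracellular ATP, stood at 20.8 and 25.4 against 1.11 and 0.648 CPM (4.69 ± 0.25), and its paralogue of chromosome 5 at 0.366 and 0.366 against 11.2 and 10.5 CPM (-4.87 ± 0.34). The scavenging chemokine receptor ACKR3 of chromosome 6 stood at 307 and 283 against 31.8 and 24.5 CPM (3.39 ± 0.09), and that of chromosome 9 at 1.14 and 1.46 against 36.6 and 35.9 CPM (-4.80 ± 0.21). GFP-negative cells held both ACKR3 genes at similar levels. The retinoid-binding rlbp1b and rlbp1a gave 5.26 ± 0.15 and -1.69 ± 0.20, and the cytokines il11a and il11b 3.23 ± 0.11 and -3.21 ± 0.31. The TIMP4 genes, inhibitors of matrix proteases, lie side by side on chromosome 11, and the gene at 687814 to 692063 was higher by 3.01 ± 0.07 while that at 679206 to 684292 was lower (-4.62 ± 0.51). In the pair of pttg1ipb (2.26 ± 0.16) and pttg1ipa, the latter had 130 counts in GFP-negative samples against 1, a ratio of 105 with a counting interval of 18.5 to 4180. For the homeobox gene DBX1 of chromosome 25 the GFP-positive samples held 289 counts and the others 1, giving 357 (63.6 to 14200) as the ratio, and DBX1 of chromosome 7 was lower (-0.88 ± 0.26), a call that was lost without the first GFP-negative sample (-0.64) or the first GFP-positive sample (-0.69).

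**Figure D5:**
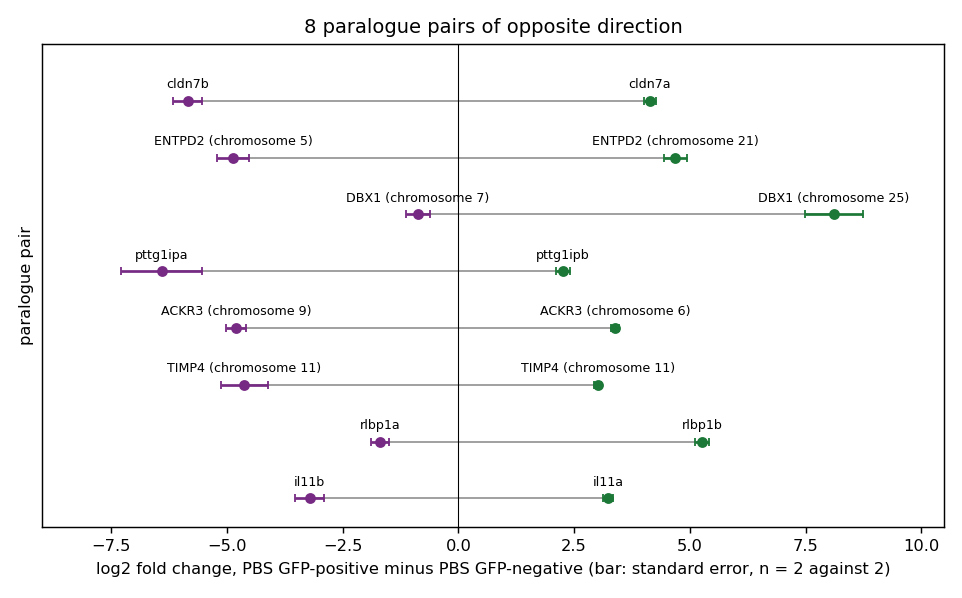
Log2 fold change (PBS GFP-positive minus PBS GFP-negative) of both genes of the 8 paralogue pairs, with the standard error (n = 2 against 2) as a bar and a grey line joining the pair. Green dots are higher and purple dots lower, and the distance is largest for cldn7a (4.13) and cldn7b (-5.85). The points of pttg1ipa and DBX1 (chromosome 25) are fitted values of genes with 1 count in the lower fraction.

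The 4 samples of the series that were injected with interleukin-4 (IL4) in place of PBS were sorted the same way. They allowed the same contrast between other samples. Above, they had entered the gene filter, the TMM factors and the estimate of spread, but not the contrast itself. Fitted apart, with no sample in common, the PBS samples gave 14360 (6965 higher and 7395 lower) and the IL4 samples 13670 called genes. Of these, 11448 were called in both with the same sign, which is 79.7% of the PBS and 83.7% of the IL4 calls, and 206 were called with opposite signs. Past 2-fold the numbers were 7280 and 6502, with 5237 shared (71.9% and 80.5%) and 3 of opposite sign. In the main fit 71.7% of all genes tested were called, 32.6% higher and 39.1% lower. Lists this long overlap in part by their length alone, and the overlap beyond that was not tested.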

How the data were processed

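The deposited values are whole-number read counts of genes, not normalized. The authors counted reads with featureCounts on GRCz10 (danRer10), per the submitters' processing notes; aligner, versions, strand setting and the treatment of multiply aligned reads are not given in the sources used here. Reads of overlapping or near-identical genes may therefore be split or shared; 46 of 383 named genes share exon bases with another gene. Samples were grouped by labels, which match the column names; the design text of the series names other injections and was not followed. Names came from a table pairing identifiers with symbols (25925 of 31388 matched, 4151 sharing a symbol, told apart by chromosome); capitals mark symbols taken from human genes.

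The counts were filtered (filterByExpr, minimum count 10, 10880 genes removed), scaled by TMM and fitted in edgeR 4.0.16 (R 4.3.3) as 4 group means. All 8 samples entered each of these steps. The IL4 samples therefore share the filter, the TMM factors and the estimate of spread (4 residual degrees of freedom). Genes were tested by the two-sided quasi-likelihood F test, and against 2-fold by glmTreat, with Benjamini-Hochberg adjustment over all genes tested. Standard errors are the log2 fold change divided by the square root of F. TPM are counts per length, scaled to one fixed sum per sample without TMM factors. They are used between genes and for the sums of lists. Sums of the 2 fractions thus compare shares of each sample's total and not TMM-scaled levels. Scripts were tested on simulated data. Alternatives used DESeq2 1.42.0, limma 3.58.1, other scaling, no filter, PBS samples alone, a replicate block, and each PBS sample left out. No set test was run. Genes with 0 counts in a fraction were set against 3 counts over the group; ratios of 1 to 3 counts carry exact 95% binomial intervals.

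Replicate numbers were not taken as pairs, because the labels state no pairing. Deviations of equally numbered PBS samples correlated by -0.0032 across genes, which cannot exclude that both fractions came from the same brains. Replicates of a group differed beyond counting noise (chi-square of 4.93 per gene in both PBS groups). The members and lists were chosen with earlier results of these data known. Named genes are the 10 highest and 10 lowest differences at 10 TPM, the 10 most abundant in each fraction, up to 4 called genes per list and direction by TPM, 8 paralogue pairs, the her4 genes and genes at 0 counts; 137 further list members were chosen after their values were seen, among them GLDC, GLI1, STRA6 and her8a. A few further genes are not reported here.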

Additional observations from a re-analysis of the deposited data

How the results depend on the processing

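Of 383 named genes, 351 kept their direction and their side of the threshold under all 11 alternatives. Among the counts over all genes, 3 moved by over 1.5 times: scaling by total counts gave 4231 genes higher and 1542 higher past 2-fold, and DESeq2 gave 45 paralogue pairs of opposite direction past 2-fold. By construction, total counts shift every gene the same way; the cause of the DESeq2 difference was not tested. Scaling by total counts reversed small differences, to -0.30 for SLIT2, -0.17 for ctsla, -0.10 for LDHB, -0.24 for ATP6V0A1, -0.19 for SYT9, -0.23 for EFNA1 and -0.25 for MFSD2A of chromosome 19, -0.16 for PTGES3, -0.17 for MDH2, -0.24 for SYT11, -0.12 for cnp and -0.14 for SLC25A5. MT-CO1, not called (-0.06), was 0.02 with the PBS samples alone and ran from -0.20 to 0.10 with 1 sample left out. Leaving out each PBS sample gave 13201 to 14127 genes differing (5914 to 6801 higher, 7158 to 7380 lower), 6509 to 7093 past 2-fold (2307 to 2841 higher, 4189 to 4252 lower), and 269 to 315 opposite pairs (60 to 72 past 2-fold). In these fits the remaining sample of a group took its spread from the other groups. List counts that moved by over 1.5 times did so mostly under total counts, with fewer higher members (glycolysis 7, tricarboxylic acid cycle 9, semaphorin and netrin 11, lysosome 13, synaptic 2, oligodendrocyte 1, endothelium 1) or more lower ones (radial glia 4, serine and glycine 5).

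With the replicate number as a block, 14512 genes differed, 6575 higher and 7937 lower. Deviations of equally numbered PBS samples correlated by -0.0032, which does not settle whether the samples were paired. The block moved no count over all genes by more than 1.5 times. It ended the calls of klf1 and il10rb. Depth limits the ratios of genes with 0 to 3 counts in a fraction.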

Other observations

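Hormone, eicosanoid, purine and lysosome genes were also counted. Of 36 steroid and thyroid hormone genes, 14 were higher and 15 lower (median -0.37). HSD17B3, a steroid dehydrogenase, stood at 68.0 and 69.0 CPM against 3.77 and 3.20 CPM (4.29 ± 0.13), and the oestrogen receptor ESR1 was lower (-1.88 ± 0.32). The deiodinases DIO2, which makes active thyroid hormone, and DIO1 were higher by 2.63 ± 0.08 and 2.41 ± 0.12, while the thyroid hormone carrier SLCO1C1, known from brain endothelium, was lower at 3.02 and 2.77 against 21.8 and 24.5 CPM.

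Of 30 prostaglandin and eicosanoid genes, 11 were higher and 13 lower (median -0.31), and scaling by total counts left 6 higher. The prostaglandin D synthases ptgdsb.2 and ptgdsb.1 stood at 2790 and 2730 against 175 and 190 CPM and at 1760 and 1710 against 173 and 188 CPM; they share 158 exon bases. The prostacyclin synthase PTGIS was lower at 9.05 and 6.43 against 141 and 134 CPM. Of 36 purine genes, 22 were lower and 4 higher (median -1.15). The ectonucleotidase NT5E, which makes adenosine, was higher at 24.5 and 27.7 against 4.42 and 2.80 CPM, and the microglial receptor P2RY12 lower at 1.51 and 1.46 against 13.5 and 16.1 CPM.

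Of 67 lysosome genes, 26 were higher and 29 lower, and the median of -0.04 was 0.04 with the PBS samples alone and 0.05 or 0.02 without the first or second GFP-positive sample. CD63, a membrane protein of late endosomes, was higher at 1180 and 1170 against 575 and 586 CPM, and laptm5, known from blood cells, lower at 9.65 and 9.05 against 141 and 168 CPM.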
